A study of Mus musculus with 4 samples.

Results

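Mitotic progenitors without Lgr5 are dividing cells of the mouse small-intestinal crypt in which no transcript of the stem cell gene Lgr5 was counted. They were selected on their own transcripts. Among cells with at least 500 genes and 1000 unique molecular identifiers (UMIs, each standing for 1 captured transcript) and at most 20% mitochondrial UMIs, a member had at least 6 UMIs over the mitosis genes Mki67, Top2a, Ube2c, Ccnb1, Cenpa, Birc5 and Cdk1. It also had no UMI of Lgr5 or of Ptprc (the CD45 gene of blood cells), under 0.3% of its UMIs in 6 goblet cell genes and under 5% in Paneth cell genes (Lyz1 and the Defa genes). This gave 1879 members among 12285 kept cells (15.3%) of 16565 deposited barcodes. Because the cells were chosen by these genes, the genes' levels and the members' share are given below as a description, without a test.

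The study compared 2 kinds of bone marrow transplant in lethally irradiated female C57BL/6 mice aged 8 to 12 weeks. Syngeneic recipients, the controls, received C57BL/6 marrow, and allogeneic recipients received BALB/c marrow and are labelled as having graft-versus-host disease, in which donor immune cells attack host tissue. Crypt cells were taken 7 days after transplantation and profiled by droplet-based 3′ single-cell RNA sequencing, with 2 libraries per group and 3 to 4 mice pooled in each. Irradiation and the C57BL/6 host were shared by both groups, there was no unirradiated group, and the prefix KO on all library names is not explained by the labels. Each pool is called an independent sample by the labels, so n = 2 pools per group throughout, and p-values measure the spread between pools, not between mice. Values listed without a library name follow the library order syngeneic 1, syngeneic 2, allogeneic 1, allogeneic 2.

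The members numbered 427, 317, 366 and 769. They held 2966226, 2268238, 4026307 and 6249054 UMIs, with a median per cell of 6184, 6271, 9460 and 6860, so allogeneic 1 was the most deeply sampled. Their median mitochondrial share was 7.13%, 7.39%, 7.61% and 4.06%. Before the other exclusions, 3596 kept cells had at least 6 mitosis UMIs. A UMI of Lgr5 was found in 647 of these and one of Ptprc in 102, while 1066 passed the goblet limit and 242 the Paneth limit, with overlaps. At the threshold, 136 members had exactly 6 mitosis UMIs, and 171 cells that met all other criteria had 5. An Lgr5 count of 0 at these depths does not show that the gene was silent. Between 2 and 7 barcodes were shared by any pair of libraries, none of them among members. A doublet caller (Scrublet) marked 89 kept cells (0.724%), 21 of them members, which were retained.

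The label was set against marker genes. The mitosis genes were required by the selection, so their presence is no check of it. All 4 libraries carried the epithelial markers, at a summed 10430, 10410, 9278 and 10620 CPM (counts per 1000000 UMIs). Markers of mature enterocytes summed to 1404, 1614, 897.1 and 2361 CPM. Among them Fabp2, the intestinal fatty acid binding protein, was at 454, 631, 89.9 and 991 CPM. The word absorptive rests on the exclusion of goblet and Paneth cells, since no absorptive marker entered the selection. At least 5 UMIs of enteroendocrine markers were found in 29 members and of tuft cell markers in 26. The Ptprc criterion left some lymphocytes in: members with at least 3 UMIs of T and NK cell markers or under 5 of epithelial markers numbered 0, 2, 9 and 32 (43 in all) and are called lymphocyte-like here. The summed T and NK marker level was 0.674, 46.7, 221 and 276 CPM with these cells and 0.674, 0.884, 7.03 and 5.52 CPM without them. That drop follows from the criteria, which used the same markers. Each result below is given for all members and was refitted on the 1836 others. Of 68 called genes among the 158 named by rule, the selection genes not counted, 42 kept their call whichever single library was left out. Allogeneic 2 also stood apart in Car1, a carbonic anhydrase of the large-intestinal marker list, which had 0 counts among members of the other 3 libraries and 920.6 CPM there. All of these counts lay in 45 of 769 members (5.85%, exact 95% interval 4.30 to 7.75%), a share close to the 5.51% of all kept cells of that library with a Car1 UMI.

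Transit-amplifying cells lie above the crypt base, divide rapidly, and supply the absorptive and secretory cells of the villus. Entry into mitosis is driven by cyclin B with CDK1, chromosomes are captured by kinetochores under a spindle checkpoint, and the anaphase promoting complex, with Ube2c as its ubiquitin-conjugating enzyme, then releases the chromatids. The promoters of many such genes hold a cell cycle homology region (CHR) and CCAAT boxes, whereas promoters of interferon-regulated genes can hold gamma-activated sites (GAS) and interferon-stimulated response elements (ISRE).

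Promoter windows of 4 genes are shown, each with a match of the motifs marked for its group. They come from the mitosis genes that selected the cells and the interferon-regulated genes that rose after allogeneic transplantation. The windows of Birc5 and Ubd were also searched, held no match of the motifs marked for their group and are not shown. The 4 windows are therefore examples with a match and do not represent their groups. Each window covers 250 bases before to 50 after a start of the gene in RefSeq (GRCm38.p6), 5′ to 3′ on the strand of the gene. Capitals mark CHR (TTTGAA or TTCGAA) and CCAAT matches in the mitosis genes Ube2c (chr2:164769679-164769978, plus strand) and Ccnb1 (chr13:100786437-100786736, minus strand). In the interferon-regulated genes Gbp2 (chr3:142620413-142620712, plus strand) and H2-DMb2 (chr17:34144999-34145298, plus strand) they mark GAS and ISRE matches. Both strands were searched. The GENCODE M21 annotation places H2-DMb2 at 34143307 to 34151555 on chromosome 17, so its RefSeq window lies inside the gene as annotated there.
Ube2c: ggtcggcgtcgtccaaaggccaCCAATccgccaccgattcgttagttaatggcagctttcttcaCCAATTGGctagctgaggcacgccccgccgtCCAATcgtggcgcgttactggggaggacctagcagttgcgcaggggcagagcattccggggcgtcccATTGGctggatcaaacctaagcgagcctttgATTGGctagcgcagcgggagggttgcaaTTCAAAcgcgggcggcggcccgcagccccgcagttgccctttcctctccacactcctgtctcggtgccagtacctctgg
Ccnb1: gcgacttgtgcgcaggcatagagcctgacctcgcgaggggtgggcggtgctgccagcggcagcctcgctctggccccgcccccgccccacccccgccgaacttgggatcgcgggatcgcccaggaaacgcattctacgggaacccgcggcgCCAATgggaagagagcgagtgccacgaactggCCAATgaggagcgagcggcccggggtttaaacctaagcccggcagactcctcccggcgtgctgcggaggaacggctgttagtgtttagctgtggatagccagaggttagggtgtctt
Gbp2: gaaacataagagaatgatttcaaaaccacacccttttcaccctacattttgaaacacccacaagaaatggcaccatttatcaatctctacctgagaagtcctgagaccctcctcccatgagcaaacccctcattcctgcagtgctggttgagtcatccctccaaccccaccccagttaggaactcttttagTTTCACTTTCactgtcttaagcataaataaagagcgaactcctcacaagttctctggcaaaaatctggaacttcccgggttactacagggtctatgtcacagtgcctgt
H2-DMb2: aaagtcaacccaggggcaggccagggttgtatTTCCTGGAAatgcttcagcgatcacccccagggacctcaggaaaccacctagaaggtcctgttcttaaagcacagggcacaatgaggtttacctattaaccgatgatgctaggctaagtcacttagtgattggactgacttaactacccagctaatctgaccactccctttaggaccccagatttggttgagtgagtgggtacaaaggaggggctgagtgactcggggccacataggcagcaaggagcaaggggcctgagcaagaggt
The Ube2c window held 1 CHR and 6 CCAAT matches, 2 of which overlap on opposite strands. The Ccnb1 window held 2 CCAAT matches, that of Gbp2 1 ISRE and that of H2-DMb2 1 GAS. The window of Birc5 held none of the 4 motifs, and that of Ubd no GAS or ISRE but 2 CCAAT matches. Not in capitals are 2 CHR matches of Gbp2 and 1 CCAAT match of H2-DMb2. Of the 7 selection genes, 5 held a CHR and 6 a CCAAT box in any RefSeq window. Among 107 genes of 6 mitosis lists with a window, of 134 listed, 59.8% held a CHR and 66.4% a CCAAT box, against 21.7% and 41.1% of all 27025 genes. Counted by window, these motifs were in 19.2% and 37.4% of 32851 promoter windows. Of the 38 interferon and antigen presentation genes that rose and had a window, of 52, 34.2% held a GAS and 36.8% an ISRE, against 9.55% and 3.99% of all genes (8.30% and 3.44% of windows). A CHR was in 31.6% and a CCAAT box in 52.6% of the same 38 genes. Among 7951 genes tested in members that had a window, 8.23% held a GAS, 3.70% an ISRE, 16.7% a CHR and 43.6% a CCAAT box. These matches describe sequence and show no binding.

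Members made up 14.9% (exact 95% interval 13.6 to 16.2%), 12.8% (11.5 to 14.2%), 17.8% (16.1 to 19.5%) and 15.8% (14.7 to 16.8%) of kept cells, a mean of 13.8% ± 1.42 (SD, n = 2) in syngeneic and 16.8% ± 1.42 in allogeneic libraries. These intervals cover counting error only. The median count of mitosis UMIs per member was 15, 14, 19.5 and 14, or 0.252%, 0.235%, 0.202% and 0.214% of a member's UMIs. Mki67, a coat protein of mitotic chromosomes, stood at 244, 223, 266 and 142 CPM. Top2a, the topoisomerase that untangles chromatids, was at 470, 471, 418 and 395 CPM. Ube2c was at 689, 673, 495 and 844 CPM, and Birc5, the survivin subunit of the chromosomal passenger complex, at 429, 451, 319 and 481 CPM. For Mki67 and Ube2c the 2 allogeneic libraries lay on either side of both syngeneic ones, while for Top2a both lay below. The place of Birc5 depended on the scaling: allogeneic 2 was the highest library with edgeR's TMM factors, whereas without them (444.3, 457.2, 342.5 and 420.7 CPM) both allogeneic libraries lay below. Levels of single genes in members are summed UMI counts scaled with TMM factors unless stated otherwise. Sums over lists, the level of Car1, levels in T cells and all levels in the comparisons of cell sets at the end are per library size, without TMM.

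**Figure D1:**
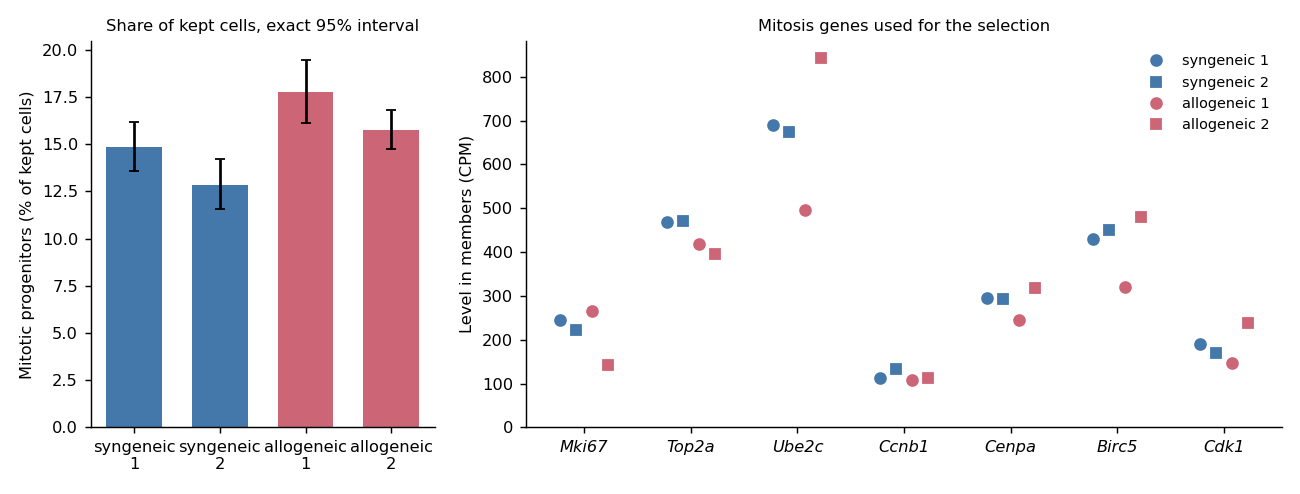
Left, share of kept cells that were mitotic progenitors in each library (bars, with exact 95% binomial intervals). Right, levels of the 7 selection genes in members (CPM, 1 point per library): Ube2c was highest in allogeneic 2 and lowest in allogeneic 1, with both syngeneic libraries between them.

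Across all genes, 10077 passed the filter on low counts, and 338 of them (3.35%) differed between allogeneic and syngeneic members at an adjusted p under 0.05 (edgeR quasi-likelihood test). Of these, 209 rose (2.07%) and 129 fell (1.28%) in allogeneic members. The table includes 26 genes that the selection used, 4 of them past the threshold (Tff3, Defa5, Defa21 and Defa22), which are no independent test. Without the lymphocyte-like cells 266 of 10025 genes differed (2.65%), 265 of them shared with the first set. Groups that did not overlap (both allogeneic libraries on 1 side of both syngeneic ones) are common with 2 against 2: 42.2% of tested genes, 20.7% higher and 21.5% lower in allogeneic members. The SD of the log2 difference over 5371 genes was 0.25 between the syngeneic libraries, 0.53 between the allogeneic ones and 0.51 to 0.65 across groups. The median log2 fold change of all tested genes was 0.01.

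No gene of the 6 lists of mitosis genes passed the test, beside 3.35% of all tested genes. The 7 selection genes are not among them, but choosing cells by mitosis UMIs conditions the level of related genes in every library, so the count of 0 is no independent measure of the mitotic programme. Together they held 131 tested genes, with log2 fold changes from -0.78 to 0.86 and a median of -0.08; edgeR's unadjusted p was under 0.05 for 8 of them. Both allogeneic libraries were higher for 12 of the 131 genes and lower for 38, beside 20.7% and 21.5% of all tested genes. Among mitotic kinases and their regulators, Aurkb, the kinase of the passenger complex, was at 87.9, 69.5, 63.2 and 66.2 CPM, and Wee1, which holds CDK1 inactive, at 24.7, 25.6, 13.4 and 15.7 CPM. Mybl2, a transcription factor of late cell cycle genes, was at 15.3, 14.8, 31.0 and 23.8 CPM. Neither Wee1 (log2 fold change -0.78 ± 0.28 SE, adjusted p = 0.178) nor Mybl2 (0.86 ± 0.28, adjusted p = 0.134) passed, although their groups did not overlap.

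The other steps of division gave the same count. At kinetochores, Hjurp, which loads the centromeric histone Cenpa, was at 108, 109, 85.9 and 49.5 CPM and Knl1, a checkpoint scaffold, at 113, 117, 80.9 and 73.5 CPM. Spindle genes such as the motor Kif15 (74.2, 77.8, 67.9 and 52.6 CPM) and the bundling protein Nusap1 (139, 130, 117 and 96.3 CPM) were lowest in allogeneic 2. Among chromatin genes, H2afx, the histone variant marked at DNA breaks, was at 309, 314, 172 and 222 CPM. Anapc15, a subunit of the anaphase promoting complex, had the lowest adjusted p among the mitosis genes named here, at 49.8, 50.4, 69.5 and 111 CPM (log2 fold change 0.85 ± 0.26 SE, adjusted p = 0.109). The cytokinesis motor Kif20b was at 103, 104, 78.5 and 71.3 CPM (-0.46 ± 0.23, adjusted p = 0.440).

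Of 38 S-phase and replication genes 1 rose, and 18 had both allogeneic libraries higher against 2 with both lower. Across all tested genes, 2.07% rose, 20.7% had both higher and 21.5% both lower. The gene that rose was Rrm2, the small subunit of ribonucleotide reductase (chromosome 12, 24708241 to 24714146, plus strand, GENCODE M21), at 54.7, 48.7, 97.5 and 166 CPM, a mean of 51.7 ± 4.24 (SD, n = 2) in syngeneic and 132 ± 48.3 in allogeneic members. The fitted change was 1.35 ± 0.28 on the log2 scale (SE, edgeR adjusted p = 0.0135), and 1.34 without lymphocyte-like cells (adjusted p = 0.0188). Left without syngeneic 1 or syngeneic 2, the adjusted p of Rrm2 was 0.273 or 0.385. The replication licensing factor Cdt1 (32.5, 34.8, 60.5 and 51.4 CPM, adjusted p = 0.127) and the methylation maintenance factor Uhrf1 (52.7, 41.3, 81.5 and 65.4 CPM, adjusted p = 0.234) were higher in both allogeneic libraries but did not pass. The median of the list was 0.25.

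Among 25 tested inhibitors of cyclin-dependent kinases and p53 targets, 2 rose, beside 2.07% of all tested genes. Fas, the death receptor, was at 1.95, 0.869, 6.02 and 11.3 CPM (log2 fold change 2.55 ± 0.56 SE, adjusted p = 0.0201), and Trp53inp1, a p53-induced stress protein, at 2.28, 1.30, 12.3 and 8.04 CPM (2.43 ± 0.50, adjusted p = 0.0130). Both genes rest on few counts, and both calls were lost when either syngeneic library was left out. Without syngeneic 1 or syngeneic 2 the log2 fold change was 3.28 or 2.15 for Fas and 2.92 or 2.14 for Trp53inp1. Fas also missed the threshold with DESeq2 (adjusted p = 0.0528). Cdkn1a, the p21 inhibitor and best known p53 target, was at 31.2, 19.1, 24.1 and 67.1 CPM and its groups overlapped (log2 fold change 0.85 ± 0.53 SE, adjusted p = 0.625).

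Of 24 tested Wnt target and crypt base genes 2 fell and 0 rose, beside 1.28% and 2.07% of all tested genes. The median of the list was -0.28. Olfm4, a secreted glycoprotein of crypt base and early progenitor cells and a Notch target (chromosome 14, 79984081 to 80023139, plus strand), was at 1771, 1549, 860 and 461 CPM, higher in both syngeneic libraries (log2 fold change -1.33 ± 0.35 SE, adjusted p = 0.0483). Without lymphocyte-like cells the value was -1.33 with an adjusted p of 0.0575, so the call was lost while the size was kept. Left without syngeneic 1 or syngeneic 2, the adjusted p of Olfm4 was 0.911 or 0.611. Clca3b, which is annotated as a chloride channel accessory family member, was at 490, 471, 198 and 110 CPM (-1.64 ± 0.34, adjusted p = 0.0122, 0.288 or 0.215 with a syngeneic library left out). The growth regulator Myc, with 52.4, 41.3, 48.6 and 56.8 CPM, overlapped between groups. Ccnd1, the cyclin of the entry into the cell cycle, was at 461, 512, 424 and 403 CPM (-0.24 ± 0.30, adjusted p = 0.845).

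Among 20 tested genes of cell fate 1 rose and 1 fell, beside 2.07% and 1.28% of all tested genes. Nrarp, a feedback inhibitor induced by Notch, was at 52.1, 41.7, 20.8 and 22.3 CPM and fell (log2 fold change -1.12 ± 0.24 SE, adjusted p = 0.0172). Spdef, a transcription factor of goblet and Paneth cells, was at 1.95, 1.30, 6.72 and 11.1 CPM and rose (2.41 ± 0.52, adjusted p = 0.0173). Atoh1, the factor that sets secretory fate, was at 7.16, 5.22, 7.64 and 18.6 CPM (1.08 ± 0.44, adjusted p = 0.285). Nrarp and Spdef were the only calls among 20 tested genes of the Notch and fate list, and both were lost when either syngeneic library was left out (adjusted p 0.134 to 0.667 for Nrarp and 0.116 to 0.182 for Spdef) and with DESeq2 (0.0617 and 0.0548). Of 3 tested goblet markers that the selection did not use, 1 rose, Spdef. The trefoil peptide Tff3, whose level the selection limits, was at 70.3, 100.4, 199 and 175 CPM and is given without a test.

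Of 25 tested enterocyte genes 1 rose and 1 fell, beside 2.07% and 1.28% of all tested genes. The median of the list was 0.27. Npc1l1, the cholesterol uptake transporter, was at 15.95, 23.04, 4.86 and 6.76 CPM and fell (log2 fold change -1.72 ± 0.36 SE, adjusted p = 0.0143, 0.338 without syngeneic 2). Maf, a transcription factor of enterocytes, was at 6.51, 5.22, 14.4 and 23.2 CPM and rose (1.67 ± 0.38, adjusted p = 0.0226, 0.169 or 0.260 with a syngeneic library left out). Hnf4a, a regulator of enterocyte genes, was at 126, 128, 103 and 55.6 CPM (-0.68 ± 0.29, adjusted p = 0.297). In allogeneic 2 the enterocyte list was unevenly held: its share of a member's UMIs lay above the 95th percentile of the pooled syngeneic members in 13.2% of members there and in 3.36% of those in allogeneic 1.

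**Figure D2:**
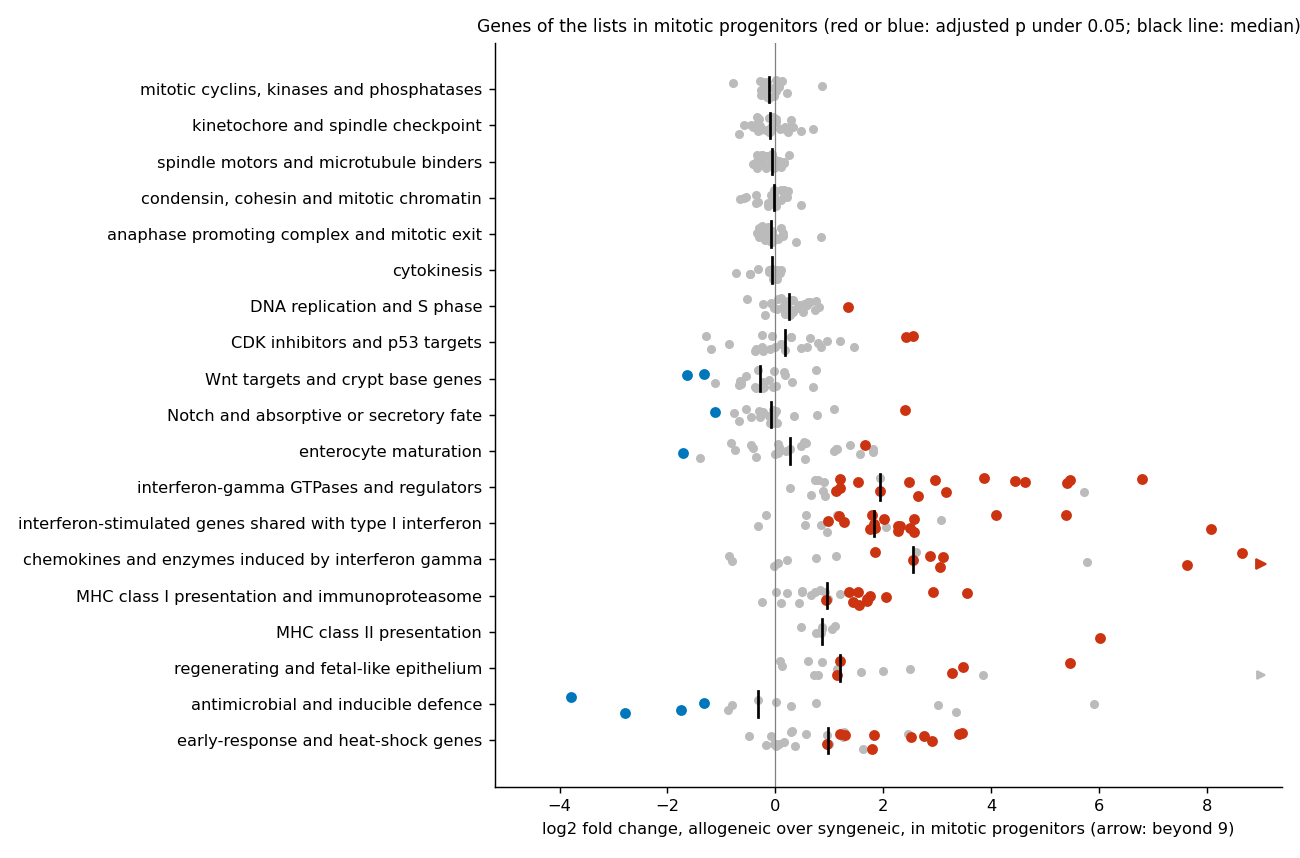
Log2 fold changes of the tested genes of 19 lists in mitotic progenitors, allogeneic over syngeneic (1 point per gene, red or blue for adjusted p under 0.05, black line for the median, arrow for values beyond 9). The mitosis lists cluster around 0 without a coloured point, while the medians of the interferon and antigen presentation lists lie to the right of 0.

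Interferon-regulated genes rose. Over 5 lists of interferon and antigen presentation genes, 52 of 99 tested genes rose (52.5%) and 0 fell, and 48 rose without the lymphocyte-like cells, beside 2.07% of all tested genes that rose. Ubd, a ubiquitin-like modifier also called FAT10 (chromosome 17, 37193892 to 37196095, plus strand), was at 2.93, 1.74, 273 and 693 CPM. The 2 groups lay far apart, with a mean of 2.33 ± 0.84 (SD, n = 2) against 483 ± 297 CPM (log2 fold change 7.63 ± 0.56 SE, adjusted p = 5.22e-06). Ido1, the enzyme that degrades tryptophan (chromosome 8, 24584136 to 24597009, minus strand), had 0 counts in both syngeneic libraries and 197 and 510 CPM in the allogeneic ones. Against 3 counts over the syngeneic group it was at least 618.3-fold higher per UMI (adjusted p = 0.00106). The bound was 368.4-fold with allogeneic 1 alone and 779.3-fold with allogeneic 2 alone.

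Guanylate-binding proteins and immunity-related GTPases, which attack vacuoles of intracellular microbes, made up much of the first list. Of 24 tested genes of this list 15 rose and 0 fell, with a median of 1.94, and 13 rose without lymphocyte-like cells. Gbp2 (chromosome 3, 142620602 to 142638008, plus strand) was at 6.83, 6.52, 103 and 191 CPM (log2 fold change 4.45 ± 0.36 SE, adjusted p = 5.22e-06). Gbp7 was at 8.46, 11.7, 69.0 and 86.8 CPM (2.96 ± 0.28, adjusted p = 1.92e-05), and Iigp1, an immunity-related GTPase, at 29.9, 27.8, 214 and 304 CPM (3.16 ± 0.30, adjusted p = 1.89e-05). Gbp3 had 2 and 4 counts in the syngeneic libraries and 114 and 167 in the allogeneic ones (4.62 ± 0.46, adjusted p = 2.66e-05). Gm4951, an annotated member of the same GTPase family, had 2 syngeneic and 447 allogeneic counts, 114 times as many per UMI (exact 95% interval 31.3 to 943, over the pooled libraries of each group and for counting error only). Genes of these families resemble each other, and how the counting divided reads between near copies is not known.

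Chemokines and enzymes of the interferon gamma response rose in 8 of 17 tested cases, also without the lymphocyte-like cells (8 of 16). Cxcl9, a chemokine that draws activated T cells through the receptor CXCR3 (chromosome 5, 92321347 to 92328079, minus strand), was at 0.651, 0.869, 127 and 497 CPM, with 2 counts in each syngeneic library (log2 fold change 8.65 ± 1.17 SE, adjusted p = 0.0421). The call of Cxcl9 was lost with a mitochondrial limit of 10% (adjusted p = 0.190) and with at least 10 mitosis UMIs (adjusted p = 0.0691), with log2 fold changes of 9.16 and 8.72. Cxcl10, a ligand of the same receptor, was at 0.325, 6.95, 48.4 and 312 CPM and did not pass (5.77 ± 1.99, adjusted p = 0.488). In syngeneic 2 its 16 counts came from 1 cell. Cxcl16, a membrane-bound chemokine, had 4 and 0 counts in the syngeneic and 74 and 143 in the allogeneic libraries (4.82 ± 0.60, adjusted p = 0.000269).
Adhesion, stress and cell death genes were among the same group. Icam1, an adhesion molecule for leukocytes, was at 4.23, 5.22, 26.9 and 53.7 CPM (3.11 ± 0.39, adjusted p = 0.000264). Gsdmd, the pore former of pyroptosis, was at 10.7, 7.82, 37.8 and 72.0 CPM (2.55 ± 0.34, adjusted p = 0.000398) and was the only call among 31 tested cell death effectors. Of all tested genes, 3.35% were called. Wars, the tryptophanyl-tRNA synthetase, was at 45.2, 46.9, 142 and 189 CPM (1.85 ± 0.26, adjusted p = 0.000710, 0.0887 or 0.0527 with a syngeneic library left out).

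Genes shared with the type I interferon response rose in 17 of 26 tested cases, with a median of 1.83, and in 16 of 25 without lymphocyte-like cells. Bst2, also called tetherin, which holds budding virus at the membrane, was at 28.6, 38.7, 154 and 243 CPM (log2 fold change 2.57 ± 0.30 SE, adjusted p = 0.000175). Samhd1, a nucleotide hydrolase, was at 18.9, 17.0, 64.9 and 64.5 CPM (1.85 ± 0.25, adjusted p = 0.000419), and Zbp1, a sensor of left-handed nucleic acids, at 8.46, 10.4, 34.1 and 56.5 CPM (2.27 ± 0.31, adjusted p = 0.000570). Ifitm1 (0.325, 0.435, 15.98 and 17.9 CPM) could not be tested once the lymphocyte-like cells were left out. Its relative Ifitm3 was at 730, 751, 1399 and 1875 CPM (1.14 ± 0.31, adjusted p = 0.0605) and did not pass.

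**Figure D3:**
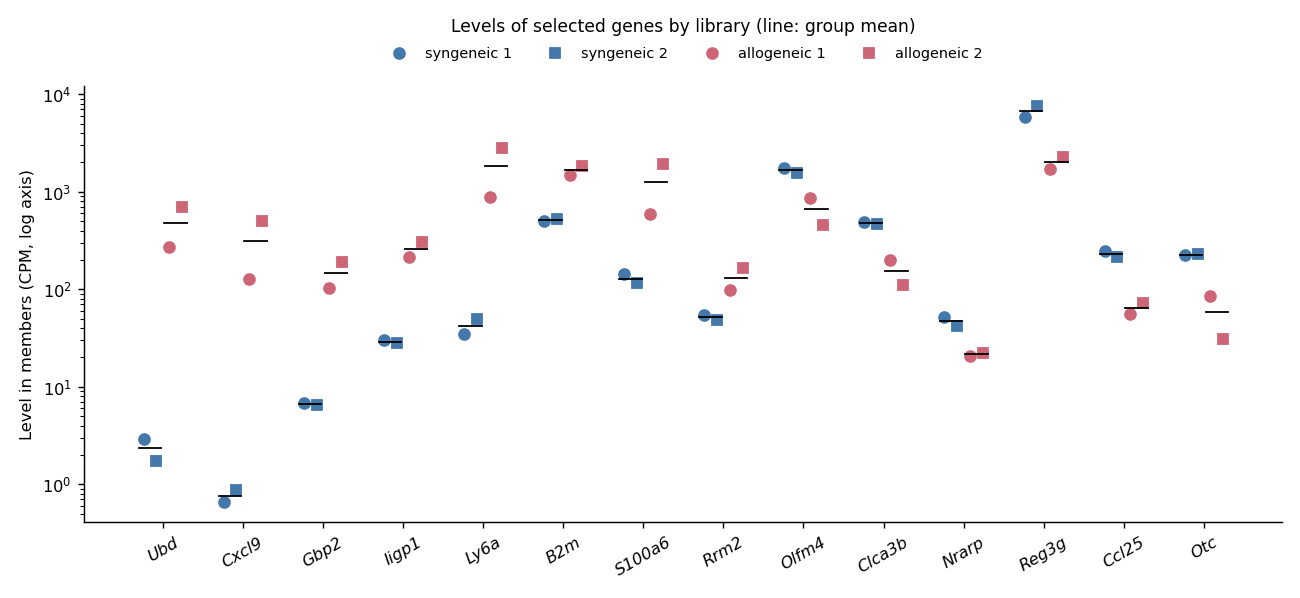
Levels of 14 genes in mitotic progenitors by library (CPM on a log axis, black lines for group means). From Ubd to Rrm2 both allogeneic libraries lie above both syngeneic ones, and from Olfm4 to Otc both lie below.

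MHC class I presentation, the display of intracellular peptides to CD8 T cells, was higher, with 11 of 24 tested genes that rose and 0 that fell (10 of 24 without lymphocyte-like cells, median 0.96). B2m, the constant light chain of class I molecules (chromosome 2, 122147686 to 122153083, plus strand), was at 500, 529, 1482 and 1857 CPM. Its group means were 514 ± 20.6 (SD, n = 2) and 1670 ± 265 CPM (log2 fold change 1.70 ± 0.32 SE, adjusted p = 0.00617, 0.606 or 0.472 with a syngeneic library left out). The nonclassical class I genes H2-Q7 (23.8, 24.8, 203 and 164 CPM, 2.92 ± 0.27, adjusted p = 1.86e-05), H2-Q6 (5.21, 4.78, 73.7 and 45.7 CPM, 3.56 ± 0.33, adjusted p = 1.86e-05) and H2-T22 (16.6, 20.4, 67.6 and 84.6 CPM, 2.05 ± 0.26, adjusted p = 0.000273) also rose. H2-Q6 and H2-Q7 are near copies, and the division of reads between them is uncertain.

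For MHC class II, which presents peptides to CD4 T cells, both allogeneic libraries were higher for all 8 tested genes, but 1 passed. Across all tested genes, 2.07% rose, and both allogeneic libraries were higher for 20.7%. H2-DMb2, a chain of the peptide exchange factor H2-DM, had 3 and 0 counts in the syngeneic and 140 and 240 in the allogeneic libraries, 64.5 times as many per UMI (exact 95% interval 21.9 to 314, pooled and for counting error only, edgeR adjusted p = 1.30e-05). H2-Eb1 was at 468, 440, 934 and 1028 CPM (log2 fold change 1.11 ± 0.30 SE, adjusted p = 0.0600) and H2-Aa at 504, 497, 938 and 1125 CPM (1.04 ± 0.31, adjusted p = 0.0857), both chains of surface class II molecules. Class II transcripts were thus present in syngeneic members as well, and the list summed to 4644, 4534, 7820 and 8194 CPM.

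Among 17 tested genes known from regenerating and fetal-like gut epithelium 5 rose, 4 of them also without lymphocyte-like cells. Both allogeneic libraries were higher in 15 of the 17. Across all tested genes, 2.07% rose and 20.7% had both higher. Ly6a, the surface protein Sca-1, which is itself induced by interferons (chromosome 15, 74994877 to 74998031, minus strand), was at 35.1, 49.5, 883 and 2821 CPM. The mean was 42.3 ± 10.2 (SD, n = 2) in syngeneic and 1852 ± 1370 CPM in allogeneic members (log2 fold change 5.46 ± 0.57 SE, adjusted p = 0.000315). S100a6, a calcium-binding protein, was at 142, 116, 590 and 1909 CPM (3.27 ± 0.50, adjusted p = 0.00451) and Anxa3, an annexin, at 1.95, 1.74, 16.7 and 25.04 CPM (3.47 ± 0.45, adjusted p = 0.000313). Ly6a and S100a6 were both far higher in allogeneic 2 than in allogeneic 1. Ly6e, a relative of Ly6a, was at 114, 139, 266 and 287 CPM (1.13 ± 0.28, adjusted p = 0.0347, 0.9999 or 0.710 with a syngeneic library left out).

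Antimicrobial lectins of the Reg family, secreted into the gut lumen, fell. Reg3g (chromosome 6, 78466269 to 78468872, minus strand) was at 5918, 7615, 1721 and 2302 CPM (log2 fold change -1.75 ± 0.33 SE, adjusted p = 0.00661, 0.209 or 0.502 with a syngeneic library left out). Reg3b was at 11908, 15540, 4217 and 6753 CPM (-1.32 ± 0.34, adjusted p = 0.0446), and without lymphocyte-like cells at an adjusted p of 0.0545. Left without syngeneic 1 or syngeneic 2, the adjusted p of Reg3b was 0.614 or 0.9999. Reg3a (22.8, 25.2, 4.86 and 2.19 CPM, -2.79 ± 0.40, adjusted p = 0.000710) and Reg1 (44, 35, 7 and 3 counts, -3.79 ± 0.50, adjusted p = 0.000398) were low in all libraries. Of 13 tested genes of the list 4 fell and 0 rose, beside 1.28% and 2.07% of all tested genes. The median of the list was -0.31. T cells were taken as cells with Ptprc and no UMI of the epithelial gene Epcam. They also had at least 2 UMIs over Cd3d, Cd3e, Cd3g, Trac, Trbc1 and Trbc2. In them Reg3g stood at 23.2 CPM (exact 95% interval 9.32 to 47.7) in allogeneic 1 and 60.2 CPM (27.5 to 114) in allogeneic 2. Leaving out cells with an Epcam UMI can lower these values by construction, and the syngeneic libraries held 4 and 16 such T cells. The part of free RNA in the members' levels was not tested.

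Of 3 tested Paneth cell markers that the selection did not use, 1 rose, beside 2.07% of all tested genes. Mmp7, the protease that activates Paneth cell defensins, was at 48.5, 24.3, 361 and 385 CPM and rose (log2 fold change 3.34 ± 0.35 SE, adjusted p = 4.99e-05). The defensins Defa21 (58.6, 53.5, 14.8 and 10.8 CPM) and Defa22 (67.4, 49.5, 18.996 and 10.97 CPM) were lower in both allogeneic libraries. Since the selection limits defensins, they are given without a test, and as near copies their separate values are uncertain. Summed Paneth marker levels were 1237, 641, 1019 and 1616 CPM, and their part in these results was not tested.

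Other large falls concerned scattered genes. Ccl25, a chemokine of the small intestine that attracts gut-homing lymphocytes through CCR9, was at 245, 216, 55.6 and 72.4 CPM (log2 fold change -1.85 ± 0.27 SE, adjusted p = 0.000927). Otc, a urea cycle enzyme of the liver and gut, was at 226, 229, 85.5 and 30.9 CPM (-1.97 ± 0.40, adjusted p = 0.0211, and 0.363 without TMM scaling). Tfpi, an inhibitor of tissue factor, was at 30.6, 32.6, 7.64 and 4.39 CPM (-2.41 ± 0.33, adjusted p = 0.000544). Plbd1 (33.8, 26.5, 9.27 and 2.92 CPM), Pla2g5, a secreted phospholipase (25.1, 28.7, 7.18 and 7.31 CPM), Cmbl (30.9, 33.0, 6.49 and 10.6 CPM) and Gas6, a ligand of TAM receptors (31.2, 22.2, 9.498 and 5.85 CPM), fell by 1.82 to 2.35 on the log2 scale. Gas6 had an adjusted p of 0.201 without syngeneic 1, and Gas6 and Plbd1 of 0.0506 among genes of at least 20 CPM. In xenobiotic metabolism 2 of 15 tested genes fell, beside 1.28% of all tested genes. They were the carboxylesterase Ces2e (46.5, 50.9, 14.4 and 22.1 CPM) and the glutathione transferase Gstm1 (41.0, 35.6, 18.996 and 20.5 CPM, adjusted p = 0.0431, 0.0510 without lymphocyte-like cells). Ces2e passed at an adjusted p of 0.00630 and was at 0.0600 or 0.101 with a syngeneic library left out.

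Cck, a gut hormone, was at 36.4, 21.7, 3.47 and 1.46 CPM and fell (log2 fold change -3.60 ± 0.43 SE, adjusted p = 0.000187). Rgs13, a tuft cell gene, was at 24.7, 10.0, 5.56 and 2.56 CPM (-2.15 ± 0.47, adjusted p = 0.0204, 0.783 without syngeneic 1). Enteroendocrine markers summed to 287, 220, 153 and 66.4 CPM and tuft cell markers to 81.9, 33.1, 38.0 and 11.04 CPM. Members with at least 5 enteroendocrine UMIs numbered 13, 5, 3 and 8 and those with 5 tuft cell UMIs 9, 4, 9 and 4. The part of these cells in the values of Cck and Rgs13 was not tested.

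Early-response genes, which are switched on within minutes of growth factor or stress signals, and heat-shock genes rose in 10 of 28 tested cases, and in 6 of 27 without the lymphocyte-like cells. Of all tested genes, 2.07% rose. Egr1 was at 13.3, 6.08, 72.3 and 63.8 CPM (log2 fold change 2.76 ± 0.31 SE, adjusted p = 0.000116) and Fos, a subunit of AP-1, at 25.7, 20.9, 64.6 and 97.4 CPM (1.79 ± 0.27, adjusted p = 0.00115). The near-identical inducible chaperones Hspa1a (0.651, 3.04, 19.5 and 19.01 CPM) and Hspa1b (1.63, 3.48, 18.1 and 19.01 CPM) rose by 3.47 and 2.90 on the log2 scale, and their separate values are uncertain.

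Metabolic lists gave few calls, beside 3.35% of all tested genes called. Pkm, the last kinase of glycolysis, was at 178, 173, 359 and 570 CPM and rose (log2 fold change 1.40 ± 0.32 SE, adjusted p = 0.0241, 0.783 or 0.756 with a syngeneic library left out), as 1 of 15 tested glycolysis genes. Gapdh was at 1240, 1207, 1582 and 3341 CPM (1.01 ± 0.36, adjusted p = 0.192). Psat1 (13.3, 18.3, 46.1 and 55.7 CPM, 1.70 ± 0.26, adjusted p = 0.00155) and Phgdh (30.6, 31.7, 82.5 and 86.6 CPM, 1.44 ± 0.24, adjusted p = 0.00237), both enzymes of serine synthesis, rose. Psat1 lost its call without syngeneic 1 (log2 fold change 1.48). Phgdh lost its call without syngeneic 1 (1.41) and without syngeneic 2 (1.47). Of 27 ribosome biogenesis genes 0 passed. Both allogeneic libraries were higher for 12 of them and lower for 0, beside 20.7% and 21.5% of all tested genes. Ddx21, a nucleolar helicase, was at 82.0, 73.0, 122 and 132 CPM (0.71 ± 0.24, adjusted p = 0.160).

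Several of the largest rises could not be tested without the lymphocyte-like members. Gzmb, the granzyme of cytotoxic cells, had 1, 5, 134 and 268 counts, Cd52, a lymphocyte surface antigen, 0, 2, 87 and 127, and the lysozyme gene Lyz2 of myeloid cells 0, 1, 132 and 69. Summed myeloid markers were 10.1, 12.3, 59.4 and 23.2 CPM with the lymphocyte-like members and 10.1, 11.5, 9.29 and 3.25 CPM without them. The name lymphocyte-like follows the criteria and does not exclude myeloid cells. Of 13 tested T and NK cell markers 10 rose, beside 2.07% of all tested genes. Without the lymphocyte-like cells 1 was left to test and 0 rose. The same markers set these cells apart, so that loss was fixed by the criteria and is no independent result. Vim, an intermediate filament of mesenchymal and blood cells, changed by 2.56 ± 0.50 on the log2 scale (SE, edgeR adjusted p = 0.00885) with these cells and by -0.38 (adjusted p = 0.926) without them.

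The share of UMIs that a list took varied among single members, at unthinned depth. Counting error and unequal depth also spread these shares, and their part was not tested. Without lymphocyte-like cells, the MHC class I list took a median of 0.514%, 0.522%, 0.987% and 1.02% of a member's UMIs. Of allogeneic members, 91.6% and 92.7% exceeded the 95th percentile of all syngeneic members (0.769%). For the GTPase list 46.8% and 59.6% exceeded it, and for the genes shared with type I interferon 21.0% and 28.2%. The median share of the crypt base list was 0.356%, 0.341%, 0.314% and 0.157%, lowest in allogeneic 2. That of the S-phase list was 0.192%, 0.170%, 0.230% and 0.228%.

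**Figure D4:**
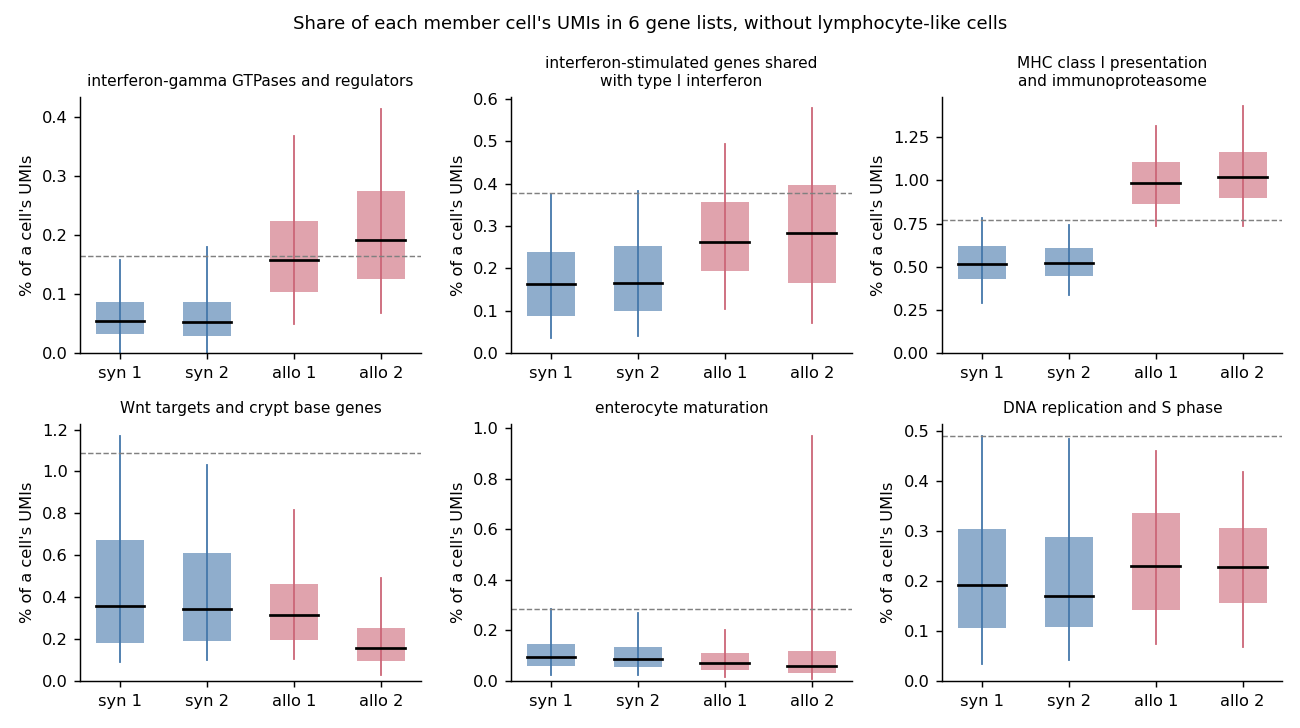
Share of a member's UMIs held by 6 gene lists, by library, without lymphocyte-like cells (line: 5th to 95th percentile, box: quartiles, black: median, dashed: 95th percentile of syngeneic members). The allogeneic boxes for MHC class I lie above the dashed line, while those for the other interferon lists cross it or lie below it.

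Detection was compared at a fixed depth of 4000 UMIs drawn per cell, so that 67, 47, 21 and 113 shallower members were set aside. Ly6a was found in 11.1%, 15.2%, 73.9% and 98.3% of members, and Cxcl9 in 0.556%, 0.370%, 21.2% and 44.1%. Before thinning and without lymphocyte-like cells, 299 of 357 and 731 of 737 allogeneic members had a Ly6a UMI. Olfm4 was found in 63.6%, 63.7%, 56.2% and 42.1% of thinned members. Only 13 and 3 allogeneic T cells reached 4000 UMIs, so T cells were compared with members at 2000. Their definition leaves out cells with an Epcam UMI, which can lower their background. At 2000 UMIs Cxcl9 was in 0 of 55 and 0 of 32 allogeneic T cells, which allows shares of up to 5.45% and 9.38%, against 11.9% and 33.0% of allogeneic members. Ly6a, which T cells can express themselves, was in 3.64% and 9.38% of these T cells against 59.9% and 93.8% of members.

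The 36 and 74 allogeneic members richest in Cxcl9, of 357 and 737 without lymphocyte-like cells, held 74.1% of its UMIs in allogeneic 1 and 60.8% in allogeneic 2. For Ly6a the same number of richest cells held 40.9% and 27.8%, and for Ido1 48.2% and 35.9%. Ubd lay between them with 64.2% and 43.2%. The richest cells were picked by the gene itself on unthinned counts, so these shares can rise as counts become fewer. With 108 and 113 UMIs of Ly6a, the 43 and 32 richest syngeneic members held 77.8% and 71.7% of them. Whether the spread between cells exceeds counting error was not tested.

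The members were then compared with cells of the same libraries that met the other criteria but had no mitosis UMI (923, 860, 530 and 2134 cells), with a median of 3230 to 3481 UMIs. Both sets share libraries, so their fold changes are not independent, and the test was of the difference between the allogeneic effects with library as a block. It called 13 of 10676 genes (0.122%), and 16 without the lymphocyte-like members, including all 13. Ubd had counts of 305, 330, 866 and 7738 in cells without mitosis UMIs and differed in effect, with a log2 fold change of 3.32 there against 7.63 in members (difference 4.41 ± 0.40 SE, adjusted p = 0.0187). Cxcl9 had 6, 9, 41 and 297 counts there, with a log2 fold change of 4.12 against 8.65 (difference 4.49 ± 0.62, adjusted p = 0.0468). Per library size, Ubd in allogeneic 2 was higher in cells without mitosis UMIs than in members (997 against 606 CPM), whereas in syngeneic 1 it was at 82.3 against 3.03 CPM. Cxcl9 was at 38.3 CPM in those cells of allogeneic 2 against 435 CPM in members.

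Tagln2, an actin-binding protein, was at 269, 235, 74.9 and 69.5 CPM in the cells without mitosis UMIs and at 473, 471, 456 and 609 CPM in members (difference 1.83 ± 0.25 SE, adjusted p = 0.0468). Fabp5, a fatty acid binding protein, was also lower in the allogeneic libraries of those cells and not in members (39.9, 34.4, 6.45 and 4.51 CPM against 39.4, 39.2, 37.8 and 63.7 CPM, adjusted p = 0.0349). Sult1d1, a sulfotransferase, was lower in allogeneic members (90.4, 88.6, 34.3 and 42.4 CPM) and higher in allogeneic cells without mitosis UMIs (403, 424, 919 and 834 CPM, adjusted p = 0.0349). With syngeneic 1 or syngeneic 2 left out this edgeR test called 0 genes, with allogeneic 1 or allogeneic 2 left out 2659 or 562, and without TMM scaling 1.

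**Figure D5:**
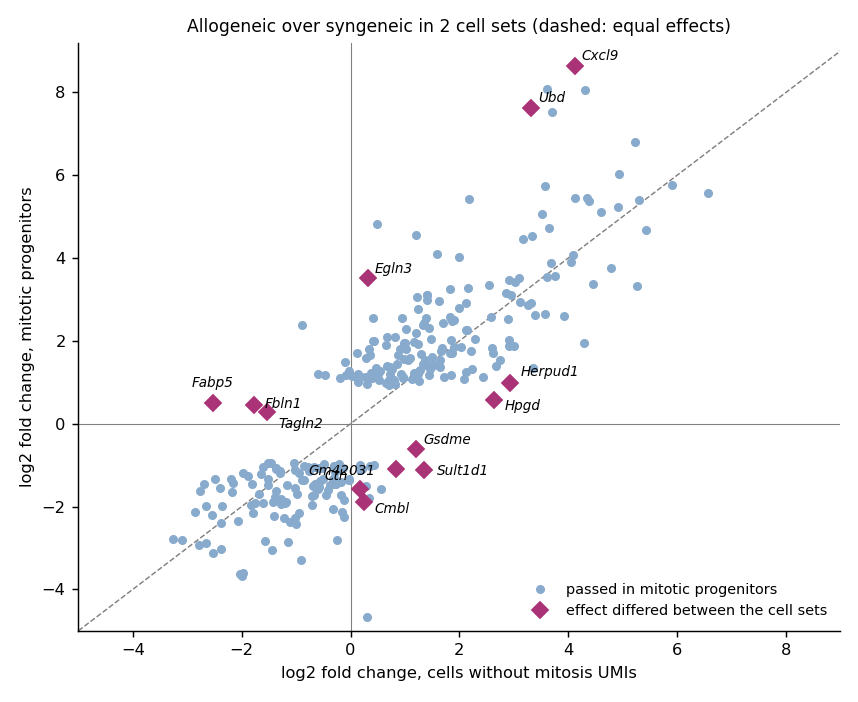
Log2 fold changes of genes that passed in mitotic progenitors (circles, within the axis limits) against those in cells without mitosis UMIs, with the 13 genes whose effect differed between the sets as named diamonds. Cxcl9 and Ubd lie above the dashed line of equal effects, Herpud1 and Hpgd below it.

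Mitotic cells with an Lgr5 UMI, the dividing cells nearest the stem cell state, numbered 116, 71, 123 and 106. Against them 27 of 9718 genes differed in effect (0.278%), also without the lymphocyte-like members, and several rest on 0 counts in a group. Ly6a stood at 33.6, 25.4, 618 and 2356 CPM in these cells (difference of the effect -0.13 ± 0.26 SE, adjusted p = 0.983) and Ubd at 4.21, 0, 284 and 877 CPM (-0.25 ± 0.76, adjusted p = 0.986). Olfm4 was at 4580, 3993, 3186 and 1024 CPM there, more than in members of the same library. Reg3b fell in both sets, with a log2 fold change of -1.32 in members and -1.80 in Lgr5-positive cells (difference 0.52 ± 0.10 SE, adjusted p = 0.000957). Phgdh differed too, with 1.44 against 0.27 (difference 1.18 ± 0.24, adjusted p = 0.00536). S-phase progenitors, with at least 6 UMIs of 10 replication genes and at most 1 mitosis UMI, numbered 32, 21, 16 and 11, too few for a firm comparison, and 4 of 9152 genes (0.0437%) differed in effect from the members.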

How the data were processed

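The deposited files hold UMI counts per gene and cell, made by the authors with Cell Ranger 2.1.1 on mm10 per the submitters' processing notes, whereas a version of 3.1.0 stands in the matrices per the file headers. How barcodes were called, and with which annotation release, is not given in the sources used here. Dense copies of the counts were not used.

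Cells were selected as described, and counts were summed per library over the members, which gave 2268238 to 6249054 UMIs. The sums entered edgeR 4.0.16 in R 4.3.3 (filterByExpr for low counts, TMM factors, robust quasi-likelihood fit of the transplant group), and p-values were adjusted by Benjamini-Hochberg across every tested gene, with a threshold of 0.05. Every adjusted p is from edgeR unless DESeq2 (1.42.0) is named. For differences between cell sets the model held library, set and the product of set and group. Selection used Python 3.11.15, and doublets were called with Scrublet in scanpy 1.11.5. Fits were tested on simulated data. Intervals for shares are exact (Clopper-Pearson) and 3 counts bound a value of 0.

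The members and the gene lists were chosen with earlier results of these data known. Named genes are the 12 largest rises and 12 largest falls among called genes with non-overlapping groups and at least 20 CPM, the 7 selection genes (described without a test, as are the goblet, Paneth and other genes of the selection), the 4 smallest p-values of each list, 15 fixed genes and, in comparisons of cell sets, the 5 smallest p-values in each direction. Alternatives covered scaling, low-count filters, DESeq2, cell criteria and leaving out each library; the lymphocyte criteria and the wider S-phase set were added after seeing the data. Gene positions are from GENCODE M21 (GRCm38). Results for some genes are not reported here.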

Additional observations from a re-analysis of the deposited data

Results flagged for a closer look

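The results below are genes whose allogeneic effect differed between the mitotic progenitors and another cell set of the same libraries, up to 5 in each direction, leaving out genes that the selection used. The value given is the edgeR adjusted p of that difference.

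Against cells without mitosis UMIs, the effect was more positive in members for Ubd (0.0187), Fabp5 (0.0349), Fbln1 (0.0349), Tagln2 (0.0468) and Cxcl9 (0.0468). Fbln1, a matrix protein, was at 36.1, 35.3, 56.9 and 37.3 CPM in members and at 73.1, 77.8, 20.3 and 16.4 CPM in the other cells. The effect was more negative in members for Sult1d1 (0.0349), Cmbl (0.0349), Herpud1 (0.0349), Gm42031 (0.0349) and Hpgd (0.0438). Herpud1, an endoplasmic reticulum stress gene, had a log2 fold change of 0.97 in members (adjusted p = 0.0394) and 2.92 in the other cells. Its call in members was lost with DESeq2 (adjusted p = 0.0860), without TMM (0.112) and without syngeneic 1 (0.486) or syngeneic 2 (0.923), among others. Hpgd, which degrades prostaglandins, had 63, 44, 106 and 190 counts in members and 583, 420, 1374 and 6041 in the other cells.

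Against the 80 S-phase progenitors, differences were found for Fabp2 (5.84e-11), 2010109I03Rik (4.74e-05), Rbp2 (0.0219) and Jun (0.0287). Fabp2, the intestinal fatty acid binding protein, had 30, 20, 8 and 227 counts in the S-phase cells, 2010109I03Rik 0, 0, 0 and 11 and Rbp2 0, 0, 1 and 32, so these rest on 11 cells of allogeneic 2. Jun had 31, 8, 8 and 3 counts there.

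Against Lgr5-positive mitotic cells, the effect was more positive in members for Fam162a (0.000757), Reg3b (0.000957), Phgdh (0.00536) and Nap1l1 (0.0161). It was more negative for Apoa1 (4.95e-19), Gip (1.72e-15), 2010109I03Rik (2.35e-09), Rbp2 (0.00014) and Slc51a (0.000957). Apoa1, an apolipoprotein, had 9, 7, 115 and 807 counts in the Lgr5-positive cells and 245, 246, 247 and 2327 in members. Gip, an enteroendocrine hormone, had 34 and 100 counts in syngeneic members and 0 in allogeneic ones, against 38 in the Lgr5-positive cells of allogeneic 1 and 0 in the other 3 libraries. Slc51a had 3, 1, 1 and 73 counts in the Lgr5-positive cells, and 2010109I03Rik 0, 0, 0 and 45.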

How the results depend on the processing

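The 338 called genes became 629 with no filter on low counts, 107 with at least 20 CPM and 225 without members that had a T or NK cell UMI, and 131 to 3209 with 1 library left out. Leaving out allogeneic 1 or allogeneic 2 leaves the fit with the spread of the syngeneic pair, the lone library being assumed to vary alike, and gave 3209 and 1666 calls; leaving out syngeneic 1 or syngeneic 2 gave 131 and 176. Scaling with RLE gave 335, no TMM 230 and DESeq2 236. The difference from cells without mitosis UMIs went from 13 genes to 1 without TMM and 8 with at least 20 CPM, and to 0 to 2659 with 1 library left out. That from S-phase cells went from 4 to 25 with at most 5 mitosis UMIs, and to 1 to 115. That from Lgr5-positive cells went from 27 to 12 without TMM, and to 6 to 22. Vim turned to -0.2814 without members with a T or NK UMI and -0.3786 without lymphocyte-like members. The mean share of members in syngeneic libraries moved to 10.18% with at least 10 mitosis UMIs. In allogeneic libraries it moved to 19.96% with a mitochondrial limit of 10%, 12.73% with at least 10 mitosis UMIs and 14.39% with stricter goblet and Paneth limits. Of 1117 values of called genes under alternatives, 1025 kept direction and call, 90 lost the call and 2 turned. The cause was not tested. No paired analysis was possible because the labels give no replicate numbers that the groups share, the numbers used here being record order. Depth limits genes with few counts, such as Fas, Trp53inp1 and Reg1.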
